A study of Mus musculus with 4 samples.

Results

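A set of 10 mouse genes that are read as signs of macrophage activation was followed in single cells of small cell lung cancer, a neuroendocrine lung tumour. They are Arg1, Mrc1, Chil3 and Retnla, which mark alternative activation, Nos2, Il1b and Tnf, which mark classical activation, and C1qa, C1qb and C1qc, which encode the chains of complement C1q. They were taken by symbol, and all 10 were found among the 32285 features of the lung tumour matrices and the 31053 features of the allograft matrices. The study profiled tumours of a gene knockout mouse model and allografts of a mouse cell line with 10x Genomics droplet RNA-seq. Lung tumours came as 1 library labelled RPR2 and 1 labelled CRPR2, names that the labels do not spell out, and allografts of the preSC line as 1 library labelled preSC_WT (genotype WT) and 1 labelled preSC_CracdKO (genotype CracdKO). Cracd is an actin regulator that the matrices list as C530008M17Rik. Strain, age, number of animals and the host of the allografts are not stated in the labels, and all 4 samples went through the same enzymatic digestion. With 1 library per group no difference could be set against a spread between replicates, so no test is given, and library, animal and genotype cannot be told apart.

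Macrophages exposed to IL-4 or IL-13 turn on Arg1, which splits arginine into ornithine and urea, Mrc1, the mannose receptor CD206, and the secreted lectin-like proteins Chil3 (Ym1) and Retnla (Fizz1). Bacterial products and interferon gamma instead turn on Nos2, which makes nitric oxide from arginine, and the cytokine genes Il1b and Tnf. C1q starts the classical complement pathway and tags dying cells for uptake, and tissue macrophages are its main source. Chil3 and Retnla are also made outside this scheme, Chil3 by alveolar macrophages and monocytes and Retnla by airway epithelium.

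The libraries held 9215 (RPR2), 12164 (CRPR2), 18559 (preSC_WT) and 16282 (preSC_CracdKO) barcodes with medians of 2873, 3300.5, 4023 and 5996 UMIs (unique molecules counted). Cells that clustered as myeloid were clustered a second time and named from marker genes, and names below stand for "like" such cells. Macrophage cells numbered 33, 99, 225 and 10, monocyte cells 144, 98, 172 and 20, and neutrophil cells 29, 72, 4 and 63, in the order RPR2, CRPR2, preSC_WT and preSC_CracdKO. The lung pair also had 31 and 87 alveolar macrophage cells. All 11 macrophage markers had UMIs in the macrophage class of each library. Of 9 alveolar macrophage markers, 4 were found in the RPR2 macrophages (366 CPM in sum, CPM being UMIs scaled to the same total in each class) and all 9 in those of CRPR2 (575 CPM), with Siglecf, Car4 and Krt79 at 0 in RPR2. Another 32, 90, 185 and 7 myeloid cells stayed unnamed. In these classes the X-inactivation RNA Xist was found in RPR2 alone (588 UMIs), and Ddx3y, on the Y chromosome, was found in each other library but not there (0, 46, 61 and 14 UMIs), so the lung libraries also came from animals of different sex. C530008M17Rik stood at 6.52 CPM in the tumour cells of the library labelled preSC_WT and at 84.3 CPM in that labelled preSC_CracdKO, against the direction of the labels. The deleted part of the gene is not given, so this is no check of the knockout, and the allograft libraries are named below only as labelled. In macrophage, monocyte and neutrophil cells the gene had 0 or 1 UMI per class. Pairs of libraries shared between 36 and 79 barcodes, 0.240% to 0.629% of a library.

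The C1q genes lie side by side on chromosome 4 of mouse build mm10, all on the minus strand, with C1qb at 136880129 to 136886187, C1qc at 136889804 to 136893065 and C1qa at 136895917 to 136898803. The gaps are 3616 and 2851 bases, and the whole cluster spans 18675 bases. RefSeq promoter sequences (250 bases before the RefSeq start, GRCm38.p6) were matched for 7 of the 10 genes, and those of Arg1, Nos2 and C1qa are not shown. The RefSeq start need not be that of the GENCODE positions given above. The C1qc window reaches into the gene as placed there. The Retnla window ends at 48842608, past the GENCODE start of 48842551. Distances of motifs are counted from the RefSeq start. Those of 4 genes are printed, the C1q neighbours because their RNAs were found in the same cells, and Chil3 and Retnla because cells outside the macrophage class held most of their UMIs. Capitals mark matches on either strand to short motifs. TATAAA is the core of the TATA box, which places the start of transcription. The myeloid factor PU.1 binds sites around GAGGAA. Maf factors, which are active in macrophages, bind a site of which TGCTGA is one side. Factors of the C/EBP family were searched as TTGCNNAA, and Stat6, which acts below the IL-4 receptor, as TTCNNNNGAA.
C1qb (chr4:136886201-136886450, minus strand): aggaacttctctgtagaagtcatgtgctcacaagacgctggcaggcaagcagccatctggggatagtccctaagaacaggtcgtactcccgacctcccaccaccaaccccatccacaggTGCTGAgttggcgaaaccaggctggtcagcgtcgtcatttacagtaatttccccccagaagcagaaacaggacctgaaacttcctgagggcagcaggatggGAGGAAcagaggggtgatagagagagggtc
C1qc (chr4:136892915-136893164, minus strand): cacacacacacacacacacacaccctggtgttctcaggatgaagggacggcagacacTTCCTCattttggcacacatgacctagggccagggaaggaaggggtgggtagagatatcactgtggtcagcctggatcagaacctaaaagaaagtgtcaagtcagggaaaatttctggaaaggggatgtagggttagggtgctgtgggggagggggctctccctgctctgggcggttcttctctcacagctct
Chil3 (chr3:106167565-106167814, minus strand): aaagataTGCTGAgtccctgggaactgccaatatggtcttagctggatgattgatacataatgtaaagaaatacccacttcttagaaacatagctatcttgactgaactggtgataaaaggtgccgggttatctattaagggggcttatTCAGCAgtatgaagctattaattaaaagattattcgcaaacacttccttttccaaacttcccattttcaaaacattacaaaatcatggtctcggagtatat
Retnla (chr16:48842359-48842608, plus strand): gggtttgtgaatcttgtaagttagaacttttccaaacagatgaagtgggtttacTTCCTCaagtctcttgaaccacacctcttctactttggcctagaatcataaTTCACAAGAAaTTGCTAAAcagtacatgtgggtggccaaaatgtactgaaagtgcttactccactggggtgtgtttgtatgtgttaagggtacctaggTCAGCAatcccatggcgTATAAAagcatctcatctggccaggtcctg

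GAGGAA lay 30 bases before the C1qb start and 193 bases before that of C1qc, and a Maf half-site lay 131 bases before that of C1qb. Neither motif was limited to the C1q genes. The Maf half-site was also found for Chil3 and Retnla, and not for C1qc. GAGGAA was also found for Retnla, and for Mrc1 and Tnf, whose promoters are not printed. Retnla was the only printed promoter with TATAAA (30 bases before the start), with a C/EBP match (134 bases) and with a Stat6 match (145 bases). Il1b and Tnf, not printed, held TATAAA 31 and 29 bases before their starts. Such matches are common: of all 32851 promoters of this length, 23.3% held GAGGAA, 16.1% TGCTGA, 12.4% TATAAA, 9.56% TTGCNNAA and 5.85% the Stat6 motif. Searches for GGGNNNTTCC (NF-kB, in 4.65% of promoters) and GAAANNGAAA (an interferon response element, in 2.98%) found no match in the 7 windows.

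Each gene's UMIs were first divided among all cell classes of a library. The C1q genes were macrophage transcripts in every library, with 79.2% to 90.1% of lung UMIs and 65.3% to 78.6% of allograft UMIs in macrophage cells of either name. Il1b was shared by monocytes and neutrophils in RPR2 (42.4% and 40.4% of 2398 UMIs), lay mostly in neutrophils in CRPR2 (52.5% of 3331) and preSC_CracdKO (83.8% of 395), and in monocytes and macrophages in preSC_WT (38.7% and 25.4% of 3154). The largest part of Tnf UMIs lay in T cells in RPR2 and preSC_WT (63.6% and 45.1%) and in neutrophils in preSC_CracdKO (80.3%). T cells made up 53.1% of the RPR2 and 9.20% of the preSC_WT cells, so a large share of UMIs need not be a high level per cell.

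Arg1, Nos2 and, in the lung, Retnla were mainly RNAs of other cells. Tumour cells held 89.6%, 51.4%, 97.6% and 83.0% of Arg1 UMIs in RPR2, CRPR2, preSC_WT and preSC_CracdKO, at only 13.9, 14.6, 28.2 and 5.92 CPM. Retnla had 3906 and 4407 UMIs in the lung libraries, of which 99.0% in each lay in club and other airway secretory cells. Nos2, the classical counterpart of Arg1, had 7, 26, 27 and 10 UMIs in all cells of the 4 libraries, and of these 1 preSC_WT macrophage and 1 preSC_CracdKO neutrophil held 1 UMI each. In CRPR2, 79.9% of the 552 Mrc1 UMIs lay in an unnamed cluster outside the myeloid cells.

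**Figure D1:**
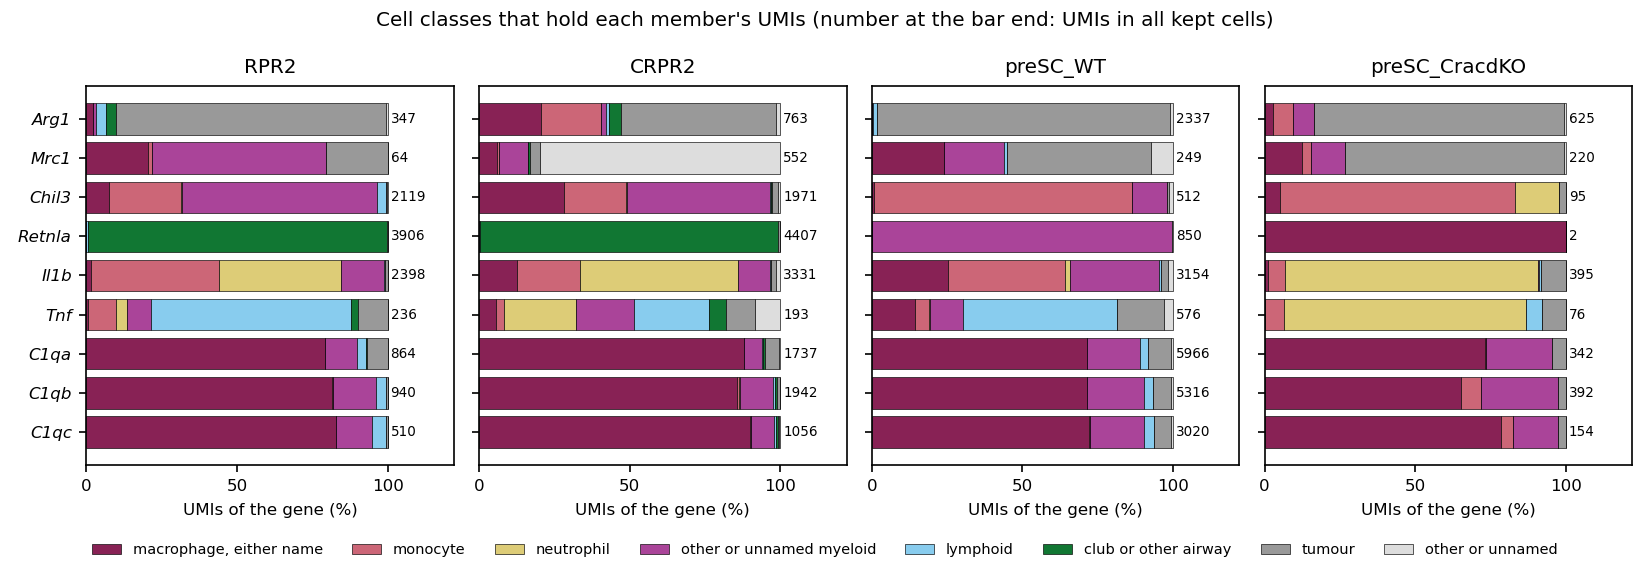
Share of each gene's UMIs (x axis, %) held by each group of cell classes, 1 panel per library; the number at the bar's end is the gene's UMIs in all kept cells (Nos2, with 7 to 27 UMIs, is left out). Bars for C1qa, C1qb and C1qc are mostly macrophage in all 4 libraries, those of Arg1 mostly tumour, and those of Retnla airway cells in the lung and unnamed myeloid cells in preSC_WT.

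Among the alternative activation genes, Arg1 was rare in myeloid cells, and more of the CRPR2 than of the RPR2 cells held it. Over all myeloid cells it had 11 UMIs in 6 of 269 RPR2 cells (2.23%, exact 95% interval 0.823% to 4.79%) and 321 UMIs in 29 of 446 CRPR2 cells (6.5%, 4.40% to 9.21%). All intervals given here cover counting error only. The summed level was 10.2 CPM in RPR2 and 243 CPM in CRPR2, a ratio of 23.8 (13.1 to 48.2), which ran from 15.1 to 24.2 under the 6 other ways of setting the classes. The CRPR2 UMIs were concentrated: 5 monocytes held 152 and 15 macrophages held 132, of which 44 in a single cell.

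Depth was made equal by thinning each cell to 1000 UMIs, which left out the shallower cells (median depths before thinning were 2551 and 1919 UMIs for lung myeloid cells, 2294.5 and 1373.5 for B cells and 6074 and 3378 for tumour cells). Arg1 then remained in 3 of 224 RPR2 and 15 of 337 CRPR2 myeloid cells (1.34% and 4.45%). The same thinning left it in 1.01% and 0.978% of tumour cells and in 0 of 383 and 0 of 694 B cells, which do not make the enzyme. The RPR2 share was thus close to that of the tumour cells and the CRPR2 share above it.

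Within the macrophage class Arg1 was found in 1 of 33 RPR2, 15 of 99 CRPR2, 1 of 225 preSC_WT and 5 of 10 preSC_CracdKO cells. Its levels were 8.31, 458, 2.14 and 317 CPM in that order. The lung ratio was 55.0 with a lower bound of 9.71, but its size moved with the way the classes were set. With doublets kept, or with finer clusters, 9 of the 15 CRPR2 cells, holding 124 of their 132 UMIs, were placed with alveolar macrophages, and the ratio was 6.08 or 4.12. With both macrophage classes summed it was 7.87 (3.89 to 18.5), from 4 of 64 RPR2 cells and 22 of 186 CRPR2 cells. Alveolar macrophages alone held Arg1 in 3 of 31 and 7 of 87 cells, at 196 and 244 CPM, levels that lay within each other's intervals.

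The 15 CRPR2 macrophages with Arg1 were deep cells, with a median of 4793 UMIs against 1745.5 in the other 84. Of these 15, 14 held C1qa, C1qb and C1qc RNA, 11 held Spp1, a secreted matrix protein, and 6 held Mrc1. In monocytes Arg1 was absent from all 144 RPR2 and all 172 preSC_WT cells and present in 5 of 98 CRPR2 cells, with 5 to 68 UMIs each. Those 5 cells all held Spp1 (a gene chosen after these cells were seen) and none held Ly6c2 or F13a1, which define classical monocytes, while 68 of the other 93 held Ly6c2. Against the limit that 0 UMIs allow in RPR2 (3 counts, 4.76 CPM) the CRPR2 monocyte level of 422 CPM was at least 88.7-fold higher. No neutrophil of any library held Arg1.

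In the allografts, over all myeloid cells, Arg1 had 11 UMIs in 11 of 677 preSC_WT cells (1.62%, 0.814% to 2.89%) and 102 UMIs in 9 of 102 preSC_CracdKO cells (8.82%, 4.11% to 16.1%). The ratio of levels was 75.3 (40.4 to 156). Thinned to 1000 UMIs, the gene remained in 1 of 560 and 7 of 60 cells, against 2.43% and 0.634% of tumour cells, so the preSC_WT share lay below that of the tumour cells around it. The preSC_CracdKO UMIs came from few cells, 18 from 5 macrophages, 40 from 2 monocytes and 44 from 2 unnamed cells.

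Mrc1 was found in macrophages at like levels in 3 libraries, but macrophages held only 20.3%, 5.98%, 24.1% and 12.3% of its UMIs in RPR2, CRPR2, preSC_WT and preSC_CracdKO. Tumour cells held 47.8% of them in preSC_WT and 72.7% in preSC_CracdKO, at 1.47 and 1.83 CPM. The unnamed lung myeloid cells held 57.8% in RPR2, at 159 CPM, and read 109 CPM in CRPR2. Macrophages read 108 CPM in RPR2 (8 of 33 cells), 104 CPM in CRPR2 (19 of 99), 128 CPM in preSC_WT (43 of 225) and 475 CPM in preSC_CracdKO (7 of 10). The CRPR2 level was 0.962 times that of RPR2 (0.487 to 2.01). In the only macrophage cluster that both allografts shared, with 72 and 10 cells, Mrc1 was found in 3 preSC_WT and 7 preSC_CracdKO cells, a ratio of levels of 7.85 (2.73 to 30.9). Arg1 in the same cluster was found in 1 and 5 cells. The cells behind these counts were not thinned, and depth differed. Macrophages had a median of 1595 UMIs in preSC_WT (all 225 cells) and 5166 UMIs in preSC_CracdKO. After thinning, Mrc1 was held by 19 of 161 preSC_WT and 3 of 9 preSC_CracdKO macrophages, and Arg1 by 0 and 2. The preSC_WT figures cover all its macrophages, not the shared cluster alone. Monocytes held 0 to 7 UMIs of Mrc1 in any library.

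Chil3 was high in alveolar macrophages and monocytes rather than in the macrophage class. Alveolar macrophages held it at 4341 CPM in RPR2 (16 of 31 cells) and 3442 CPM in CRPR2 (51 of 87 cells). Monocyte levels were 802 CPM in RPR2 (57 of 144 cells), 1135 CPM in CRPR2 (56 of 98), 1234 CPM in preSC_WT (103 of 172) and 1915 CPM in preSC_CracdKO (10 of 20). In B cells, as a measure of free RNA, only 2 of 388 RPR2 cells and none of the 766, 1068 and 98 B cells of the other libraries held it. The ratio between libraries was 1.42 (1.24 to 1.62) in lung monocytes and 1.31 (1.11 to 1.56) within the lung monocyte cluster with most cells of both libraries. In allograft monocytes it was 1.55 (1.20 to 1.99), and 0.992 (0.669 to 1.48) within the only well-filled cluster that both allografts shared (13 and 16 cells).

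In the macrophage class Chil3 read 58.2, 749, 6.41 and 88 CPM in RPR2, CRPR2, preSC_WT and preSC_CracdKO. Only 4, 9, 2 and 2 cells held it, and 1 cell held 85 of the 216 CRPR2 UMIs. The lung ratio of 12.9 (6.14 to 32.4) turned to 0.169 with doublets kept, when 7 of the 9 CRPR2 cells joined the alveolar macrophages. A small unnamed lung cluster held 1361 UMIs in 4 of 8 RPR2 cells and 921 UMIs in 29 of 38 CRPR2 cells. Its level of 13913 CPM in RPR2 was above that of the alveolar macrophages, and its level of 3300 CPM in CRPR2 was near theirs. Unnamed myeloid cells held 64.6% of the RPR2 and 47.7% of the CRPR2 Chil3 UMIs. Over all myeloid cells the level was 1896 CPM in RPR2 and 1444 CPM in CRPR2, a ratio of 0.761 (0.715 to 0.811). Chil3 was found in 31.2% and 34.3% of these cells. The 4 RPR2 cells of the small unnamed cluster held 1361 of the 2043 RPR2 UMIs behind this ratio, so it rests largely on them.

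Retnla, whose promoter held the TATA, C/EBP and Stat6 matches, was not a gene of the named myeloid classes. It had 0 UMIs in the macrophage, alveolar macrophage, monocyte and neutrophil cells of RPR2, CRPR2 and preSC_WT, and 2 UMIs in a single preSC_CracdKO macrophage. In 99 CRPR2 macrophages this allows a level of up to 10.4 CPM. Club and other airway secretory cells make the airway lining fluid. They held Retnla at 1379 CPM in RPR2 (89 of 277 cells) and 605 CPM in CRPR2 (160 of 1138 cells). These levels were concentrated: a single cell held 1824 of the 3868 RPR2 UMIs, and a single cell held 1033 of the 4363 CRPR2 UMIs. In preSC_WT 846 of 850 UMIs lay in 13 unnamed myeloid cells, with 355 of them in a single cell. Of these 13 cells, 12 held C1qb, 8 held Mrc1 and none held Chil3 or Il1b.

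**Figure D2:**
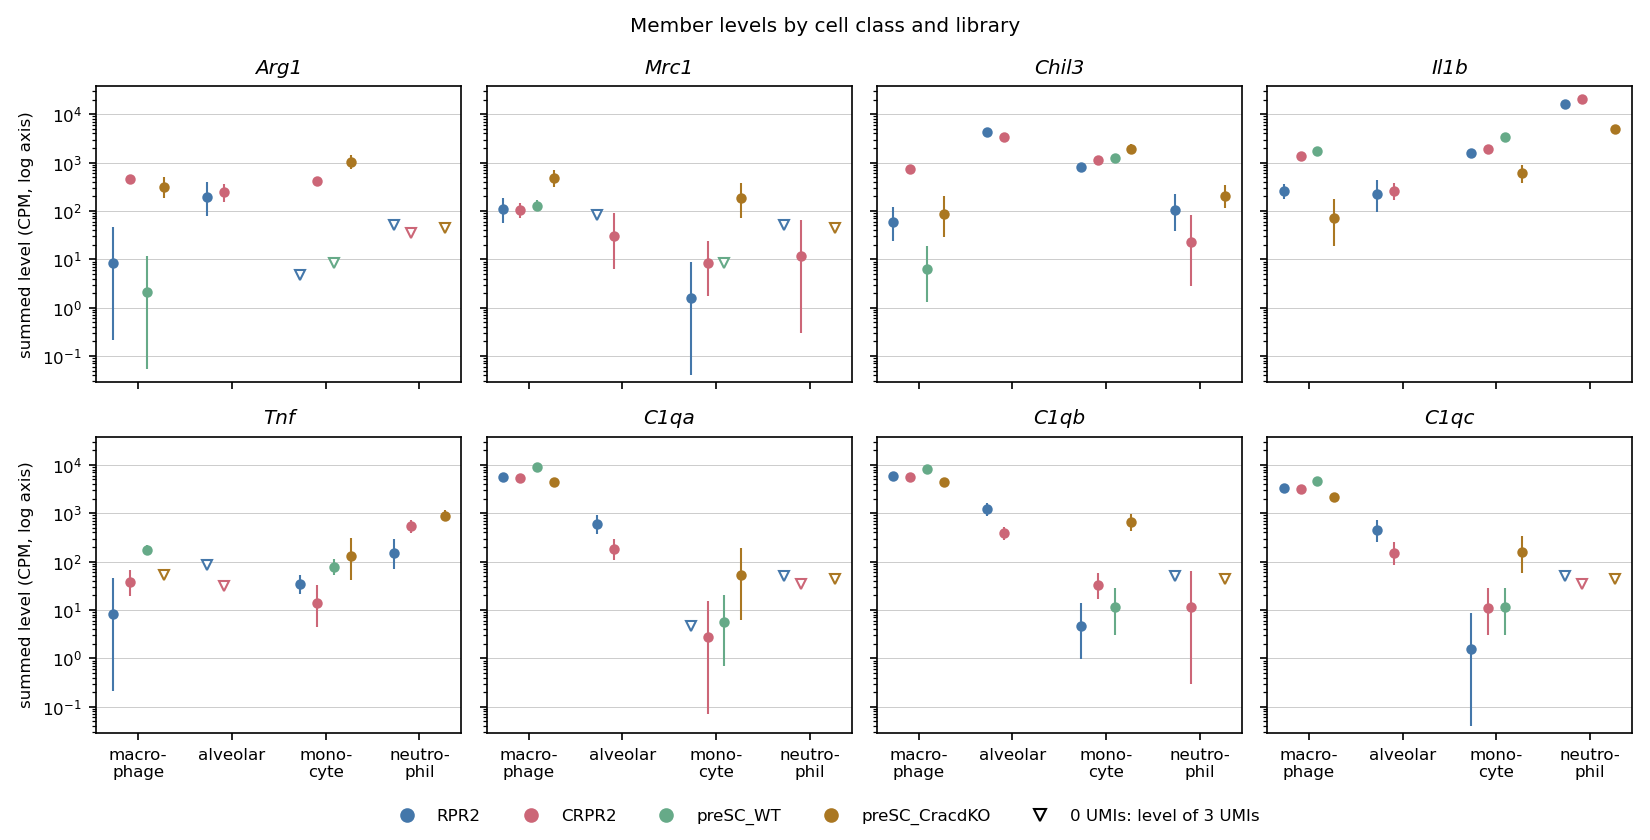
Summed level of each gene (y axis, CPM on a log scale) by cell class, 1 colour per library, with exact Poisson 95% bars; open triangles mark classes with 0 UMIs, drawn at the level of 3 UMIs, and classes under 10 cells are left out (Retnla and Nos2 are near 0 throughout and not drawn). Il1b is highest in neutrophils, Chil3 in alveolar macrophages and monocytes, and the C1q genes in macrophages.

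Of the classical activation genes, Il1b was the most abundant in myeloid cells and was highest in neutrophils. Neutrophils held it at 16599 CPM in RPR2 (28 of 29 cells), 20221 CPM in CRPR2 (71 of 72), 19327 CPM in preSC_WT (4 of 4 cells) and 4864 CPM in preSC_CracdKO (53 of 63). The summed neutrophil markers differed too, at 239773 CPM in RPR2, 119032 CPM in CRPR2 and 38014 CPM in preSC_CracdKO, and their part in the Il1b levels was not tested. Among B cells 0 of 388, 1 of 766, 3 of 1068 and 1 of 98 cells held Il1b, so the levels in neutrophils and monocytes were far above free RNA.

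In monocytes Il1b read 1612 CPM in RPR2 (104 of 144 cells), 1915 CPM in CRPR2 (60 of 98), 3434 CPM in preSC_WT (109 of 172) and 595 CPM in preSC_CracdKO (7 of 20). The lung ratio was 1.19 (1.08 to 1.31), while fewer CRPR2 cells held the gene. Within the cluster that held 36 RPR2 and 89 CRPR2 monocytes it was 0.973 (0.860 to 1.10), so the pooled difference was not seen there. RPR2 monocytes lay mainly in a different cluster (74 of 144 cells) from those of CRPR2 (89 of 98). The allograft ratio was 0.173 (0.109 to 0.261). The largest monocyte cluster held 87 preSC_WT cells and no preSC_CracdKO cell, and the shared cluster of 13 and 16 cells held only 1 and 3 UMIs.

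Macrophages held Il1b at 258 CPM in RPR2 (9 of 33 cells), 1383 CPM in CRPR2 (43 of 99), 1708 CPM in preSC_WT (82 of 225) and 70.4 CPM in preSC_CracdKO (1 of 10). The lung ratio was 5.37 (3.72 to 8.0), and 5.58 (3.8 to 8.51) in the cluster of 18 and 55 cells. With doublets kept or finer clusters it was 1.8 or 1.3. In those settings 14 CRPR2 cells with 316 or 324 of the 399 UMIs were placed with alveolar macrophages, and the RPR2 class changed from 33 to 25 cells in each. Over all myeloid cells Il1b read 2193 and 2425 CPM in RPR2 and CRPR2, a ratio of 1.11 (1.05 to 1.17), and 60.6% and 48.7% of cells held it. In the allografts the same ratio, preSC_CracdKO over preSC_WT, was 0.993 (0.888 to 1.11).

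Among the named myeloid classes of at least 20 cells, Tnf was highest in neutrophils in RPR2, CRPR2 and preSC_CracdKO, and in macrophages in preSC_WT. Neutrophils held it at 154 CPM in RPR2 (4 of 29 cells), 532 CPM in CRPR2 (14 of 72) and 896 CPM in preSC_CracdKO (24 of 63). The lung ratio was 3.45 (1.67 to 8.02), but 31 of the 46 CRPR2 UMIs lay in a cluster with only 2 RPR2 cells, and in the shared cluster of 27 and 50 cells the ratio was 1.79 (0.712 to 4.87). Macrophage levels were 8.31, 38.1, 175 and 0 CPM, with 1, 5, 40 and 0 cells in the order RPR2, CRPR2, preSC_WT and preSC_CracdKO. Monocyte levels were 34.9, 13.9, 78.7 and 129 CPM, from 17, 5, 23 and 2 cells. T cells, a known source of the cytokine, held it at 96.6 CPM in preSC_WT (10.1% of cells), below the 175 CPM of the macrophages of that library.

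**Figure D3:**
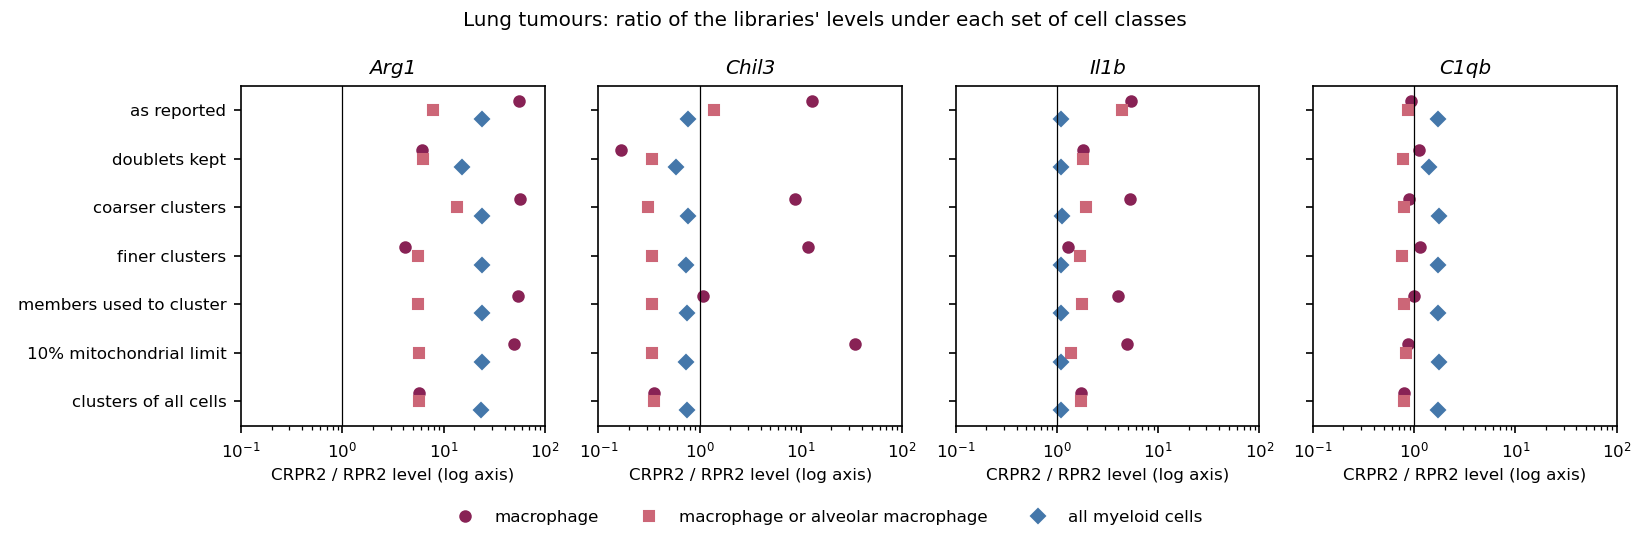
Ratio of the CRPR2 to the RPR2 level (x axis, log scale) of 4 genes under each way of setting the cell classes (rows), for the macrophage class (circles), both macrophage classes (squares) and all myeloid cells (diamonds). Arg1 lies above 1 in every row, Il1b over all myeloid cells stays near 1.1, and Chil3 in macrophages crosses 1.

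The C1q genes were the most abundant members in macrophages. C1qa read 5512, 5238, 9101 and 4402 CPM in the macrophages of RPR2, CRPR2, preSC_WT and preSC_CracdKO. C1qb read 6003, 5643, 8106 and 4508 CPM in the same order. C1qc read 3376, 3245, 4657 and 2131 CPM. Summed over the class, the lung libraries lay close together. The CRPR2 to RPR2 ratios were 0.95 (0.867 to 1.04) for C1qa, 0.940 (0.861 to 1.03) for C1qb and 0.961 (0.855 to 1.08) for C1qc. Under the other settings the C1qb ratio ran from 0.793 to 1.23. Clusters within the class went opposite ways. In that of 18 and 55 cells the ratios were 0.906, 0.887 (0.808 to 0.974) and 0.886 for C1qa, C1qb and C1qc. In that of 15 and 44 cells they were 1.47, 1.49 (1.12 to 2.01) and 2.32.

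The 3 chains were found in like proportions in the macrophages of both lung libraries. Of all C1q UMIs in lung macrophages, C1qa made up 37.0% in RPR2 and 37.1% in CRPR2, C1qb 40.3% and 40.0%, and C1qc 22.7% and 23.0%. In preSC_WT macrophages the order of the first 2 was the other way round, with C1qa at 41.6% (40.7% to 42.6%) and C1qb at 37.1% (36.1% to 38.0%). Alveolar macrophages held less C1q, with C1qb at 54.3% (42.9% to 65.4%) in RPR2 and 53.5% (41.3% to 65.5%) in CRPR2. Their C1qb level was 1232 CPM in RPR2 (10 of 31 cells) and 387 CPM in CRPR2 (14 of 87 cells), a ratio of 0.314 (0.198 to 0.496). C1qa and C1qc in these cells gave ratios of 0.312 (0.157 to 0.614) and 0.341 (0.157 to 0.736). C1qa was found in 16.1% of the alveolar macrophages of each library (5 of 31 and 14 of 87 cells). A single RPR2 cell held 11 of its 21 UMIs there, so its lower level was not a lower share of cells. C1qc was found in 7 of 31 and 9 of 87 cells. Over all myeloid cells the C1qb ratio was 1.71 (1.58 to 1.86) in the lung and 0.646 (0.581 to 0.717) in the allografts, where the share of macrophages among the cells also differs.

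Co-detection in single cells followed the same line. All 3 chains were found in 22 of 33 (66.7%), 79 of 99 (79.8%), 205 of 225 (91.1%) and 8 of 10 (80%) macrophages of RPR2, CRPR2, preSC_WT and preSC_CracdKO. After thinning to 1000 UMIs the first 3 shares were 76.0%, 76.4% and 88.8%. No C1q chain was found in 15.2%, 14.1%, 2.22% and 0% of macrophages, against 98.6%, 96.9%, 97.1% and 70% of monocytes and 98.6% to 100% of neutrophils. In T cells, as a measure of free RNA, 0.170% of RPR2, 0 of 877 CRPR2 and 2.40% of preSC_WT cells held C1qa.

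**Figure D4:**
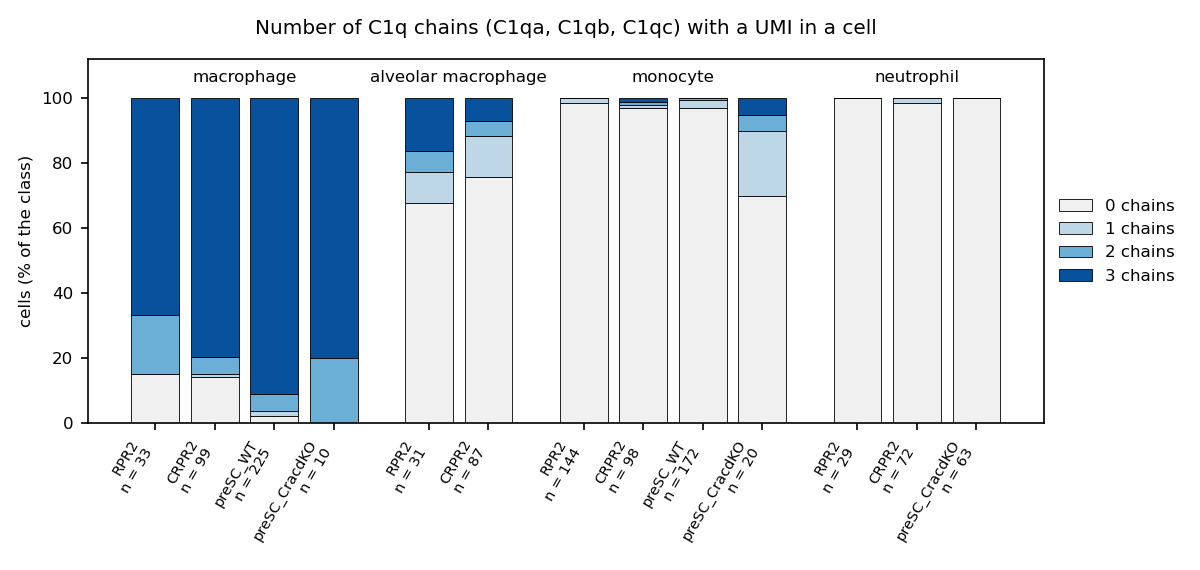
Share of cells (y axis, %) with UMIs of 0, 1, 2 or 3 of the C1q chains, for each class and library with at least 10 cells (n under each bar, not thinned). Macrophages hold all 3 chains in 66.7% to 91.1% of cells, while at least 96.9% of monocytes hold none except in preSC_CracdKO (70%).

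Alternative and classical genes were often found in the same cell. In monocytes 45 of 144 RPR2 (31.2%, 23.8% to 39.5%), 40 of 98 CRPR2 (40.8%, 31.0% to 51.2%), 71 of 172 preSC_WT (41.3%, 33.8% to 49.0%) and 5 of 20 preSC_CracdKO cells (25%) held at least 1 gene of each kind. These were mostly cells with both Chil3 and Il1b, of which there were 41, 37 and 67 in RPR2, CRPR2 and preSC_WT. Of RPR2 monocytes with an alternative gene 77.6% held a classical gene, and 74.4% of those without did. The same shares were 64.5% and 61.1% in CRPR2 and 68.9% and 65.2% in preSC_WT, so in these 3 libraries a cell's alternative genes said little of its classical ones. At 1000 UMIs per cell 16.1%, 21.1% and 30.9% of monocytes held both kinds.

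In macrophages 3 of 33 RPR2, 23 of 99 CRPR2, 24 of 225 preSC_WT and 1 of 10 preSC_CracdKO cells held both kinds. In CRPR2, 67.6% of macrophages with an alternative gene held a classical gene and 33.8% of those without did, but after thinning the shares were 47.4% and 43.4%. Il1b was found with Arg1 in 9 of the 15 CRPR2 macrophages that held Arg1, and with Mrc1 in 13 of 19. It was also in 34 of the 84 without Arg1, which were shallower (medians of 1745.5 against 4793 UMIs). These counts are not thinned. Il1b was found in 32.1% of RPR2 macrophages with C1q and in 0 of the 5 without, in 44.7% and 35.7% of those of CRPR2, and in 35.9% and 60% of those of preSC_WT, where only 5 cells lacked C1q. After thinning, the CRPR2 macrophage shares were 42.9% with and 44.4% without C1q. Over both lung macrophage classes the CRPR2 shares were 41.5% with and 11.2% without C1q, and 34.2% and 12.8% after thinning. These sums mix 2 classes, and the CRPR2 alveolar macrophages held less C1q and less Il1b (255 CPM), so no link within a class is read from them.

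To set these ratios against all genes, those at 20 CPM or more in at least 1 library of a pair were counted past 2-fold. In lung macrophages 4 of 8 members tested were past 2-fold higher in CRPR2 (Arg1, Chil3, Il1b, Tnf), where 13.2% of 6161 genes were, and none was lower, where 19% were. Arg1 and Tnf, at 8.31 CPM each in RPR2, passed the 20 CPM filter only through CRPR2, so that they had to differ, and the count is given as a description. With an interval that leaves out 1, 3 members (Arg1, Chil3, Il1b) were called, against 6.57% of genes in either direction. In alveolar macrophages 1 of 7 members was higher (Mrc1, 0 and 3 UMIs, which also passed through CRPR2 alone) beside 25.7% of genes, and the 3 C1q genes were lower beside 35.5%, all 3 with an interval that leaves out 1, beside 2.57% of genes. Past 2-fold alone, most genes of this class were called one way or the other, and the RPR2 side held 31 cells.

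In lung monocytes Arg1 and C1qb were past 2-fold higher in CRPR2, beside 5.52% of genes, and Tnf was lower, beside 9.3%. Arg1 and C1qb also had an interval that leaves out 1, as did 8.57% of genes past 2-fold. Both passed the filter only through CRPR2, with RPR2 levels of 0 and 4.76 CPM, so nothing is read from that count. The C1qb ratio of 7.0 (1.89 to 38.7) came from 3 UMIs in 1 RPR2 cell and 12 UMIs in 3 CRPR2 cells. In lung neutrophils Tnf was higher, where 44.5% of genes were, and Chil3 lower on 6 and 2 UMIs, where 14.3% were, and only Tnf had an interval that leaves out 1, beside 6.54% of genes.

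In allograft monocytes, 172 cells of preSC_WT against 20 of preSC_CracdKO, 5 of 8 members were past 2-fold higher (Arg1, Mrc1, C1qa, C1qb, C1qc), beside 33% of genes, and Il1b was lower, beside 20.5%. All but C1qa had an interval that leaves out 1, beside 8.08% of genes. The 5 passed the filter only through preSC_CracdKO, with preSC_WT levels from 0 to 11.2 CPM, so nothing is read from their number. Arg1 stood at 0 and 40 UMIs, at least 123-fold higher, but 37 of the 40 lay in 1 cell, and Mrc1 at 0 and 7 UMIs in 2 cells, at least 21.5-fold higher. C1qb was found in 3 of 172 and 4 of 20 cells, a ratio of 59.8 (20.8 to 236), which was between 1.52 and 5.19 with doublets kept, at other cluster resolutions, with the members used to cluster, or with a lower mitochondrial limit.

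Other genes of these pathways were counted from 7 lists. In lung macrophages 10 of 21 tested partners of classical activation were past 2-fold higher in CRPR2, beside 13.2% of all genes, and 2 were lower, beside 19%, with a median log2 ratio of 0.70 against -0.23 over all 9916 genes at 5 CPM or more. The neutrophil-attracting chemokine Cxcl2 had 28 and 652 UMIs (ratio 9.71, 6.65 to 14.7), and Ccl3 had 18 and 211 (4.89, 3.02 to 8.41). Ccl5, a chemokine of T cells and activated macrophages, was 21.4-fold lower in CRPR2 (12 to 41.4), with 116 and 13 UMIs. T cells made up 53.1% of the RPR2 and 8.12% of the CRPR2 cells, and the part of T cell RNA in this ratio was not tested. Il1r2, the decoy receptor that binds IL-1, had 1 and 55 UMIs. Among partners of alternative activation 2 of 9 were higher and none lower, beside the same shares of all genes. They were the eosinophil attractant Ccl24, at 0 and 253 UMIs, and the T cell attractant Ccl17, at 21 and 110 (2.18, 1.36 to 3.67). Of the Ccl24 UMIs, 195 lay in 5 CRPR2 cells with Arg1 and 58 in 4 without. Ccl24 and Il1r2, at 0 and 8.31 CPM in RPR2, passed the 20 CPM filter only through CRPR2. They had to count as higher, so nothing is read from their being called. None of 9 other complement genes was past 2-fold. The count of classical partners moved with the way the classes were set: 5 of 18 were higher and 4 lower with doublets kept (beside 15.4% and 21.9% of all genes), and 3 and 5 of 18 at resolution 2 (15.4% and 21.5%). With clusters of all cells 3 of 20 were higher and 3 lower (6.47% and 12%), while 10 of 19 or 20 were higher in the 3 other settings.

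Of 15 genes of tissue dissociation and stress 2 were past 2-fold higher and none lower in the same macrophages, a share near the 13.2% of all genes, with Ier3 at 4 and 56 UMIs and Zfp36 at 12 and 97. Neutrophil markers summed to 33.3 CPM in RPR2 and 298 CPM in CRPR2 macrophages, with 2 and 5 of the 12 markers found. Il1r2, named above, is among these markers and gave 8.31 and 191 CPM of the sums. S100a8 was at 0 and 76.3 CPM, and S100a9 and Ly6g were at 0 in both. Markers of club cells, whose abundant secretory RNA is a sign of free RNA, summed to 191 and 413 CPM, with 1 and 3 of 6 found. The part of stress genes, neutrophil markers and free RNA in the ratios of Il1b and the chemokines was not tested.

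In lung monocytes 4 of 22 classical partners were higher in CRPR2, beside 5.52% of all genes, and 5 were lower, beside 9.3%, with a median of -0.19 against -0.03 over all genes. The NF-kB regulators Nfkbiz (271 and 64 UMIs, 2.42-fold lower, 1.84 to 3.23) and Tnfaip3 (93 and 23, 2.31-fold lower, 1.45 to 3.82) were among the latter, as 1 of 15 stress genes was. T cell markers summed to 309 CPM in RPR2 monocytes, with 9 of 9 markers found, and to 0 in CRPR2, and their part was not tested. Apoe, a lipid carrier that macrophages make with C1q, stood at 299 and 933 UMIs in these monocytes (5.46, 4.79 to 6.25).

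In lung neutrophils 10 of 19 classical partners were higher, beside 44.5% of all genes, and 2 lower, beside 14.3%, with a median of 1.11 against 0.98 over all genes, so that they lay near the rest. Ccl3 (70 and 572 UMIs, ratio 5.52, 4.30 to 7.18) and Ccl4 (36 and 266, 4.99, 3.51 to 7.28), both chemokines induced beside Il1b and Tnf, were well above that median. Only 4 of 15 stress genes were higher, a share below the 44.5% of all genes. In allograft monocytes 3 of 22 classical partners were higher in preSC_CracdKO, beside 33% of all genes, and 10 lower, beside 20.5%, with a median of -0.93 against -0.28. Beside these, 13 of 15 stress genes were lower and none higher, with a median of -2.03, and the part of dissociation in the lower Il1b was not tested. C1q partners and genes of apoptotic cell uptake were higher in 6 of 11 cases and alternative partners in 5 of 10, beside the same 33% of all genes. Among them were Mertk with 1 and 4 UMIs and the scavenger receptor Msr1 (33 and 18 UMIs, ratio 5.02, 2.66 to 9.18). Mertk, at 2.81 CPM in preSC_WT, passed the 20 CPM filter only through preSC_CracdKO. There 1 UMI alone stood at 25.9 CPM, so nothing is read from the counts of higher list genes in these monocytes.

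Across the 39 groups of cells formed by class and library, the genes whose log2 levels ran most like each member were listed as a description, since groups of a library share its depth and free RNA. Ms4a7, a macrophage membrane protein, led for all 3 C1q genes, with r of 0.921 for C1qa, 0.935 for C1qb and 0.953 for C1qc, and C1qb and C1qc themselves gave 0.976. Il1b ran with Nlrp3, the inflammasome sensor that controls its release (r = 0.961), Chil3 with F10 (0.917), Mrc1 with Rab3il1 (0.829), and Tnf with its receptor gene Tnfrsf1b (0.846). Arg1 was least well matched, with Mt1 at 0.725 and Ccl24 at 0.713, and Retnla ran with Iyd (0.979) and not with Arg1 (-0.05). Arg1 and Il1b gave 0.107.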

How the data were processed

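The files hold UMI counts per gene and cell barcode as deposited, made with Cell Ranger 6.1.2 (lung) and 5.0.0 (allografts) per the file headers, on mm10 per the submitters' processing notes. The annotation release is not given in the sources used here. Gene positions come from GENCODE vM21, which need not be the release counted, and promoters from RefSeq. The smallest barcode total is 500 UMIs. The members, gene lists and markers were chosen with earlier results of these data known.

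Barcodes had to hold 300 genes or more and no more than 15% of UMIs from mitochondrial genes. Doublets were removed with Scrublet, by its automatic threshold in RPR2 (2.84%) and preSC_WT (1.93%), and, where that marked under 0.5%, as the highest scores at 0.8% per 1000 barcodes in CRPR2 (9.73%) and preSC_CracdKO (13.0%). Each pair of libraries was clustered together (scanpy 1.11.5, leidenalg 0.10.2, 2000 variable genes without the members, 50 components, 15 neighbours, resolution 1, seed 1), and myeloid cells once more alone (30 components). Clusters were named from marker lists. The rule for names was revised, and the second clustering put in place of the planned one, after clusters and some member values had been seen, because a lung monocyte cluster and an allograft granulocyte cluster had stayed unnamed. A cluster stayed unnamed where its macrophage and monocyte scores differed by under 1 on the log2 scale, where another class outnumbered its own among the leading genes' markers, or where shallow cells had no own marker leading.

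Levels are summed UMIs over the UMIs of the class, as CPM. UMIs of this 3' assay count molecules and were not divided by gene length. Intervals are exact Poisson for levels, conditional binomial for ratios and Clopper-Pearson for shares, at 95%. Counting error is all they cover. The limit for 0 UMIs is 3 counts. Shares were also given with cells thinned to 1000 UMIs. Pairs of classes with at least 20 cells in each library were compared, over genes at 20 CPM or more in 1 library, past 2-fold. Medians of lists used log2(CPM + 1) of genes at 5 CPM or more. From each list, the text names among genes past 2-fold at most the 4 of highest CPM in a comparison, and for each member the 3 most alike genes by Pearson's r of log2 levels over groups of at least 20 cells. Python 3.11.15, numpy 2.4.6, scipy 1.17.1, pandas 2.3.3, anndata 0.12.19 and matplotlib 3.10.9 were used, and edgeR 4.0.16 in R 4.3.3 only for TMM factors. The routines were tested on simulated data. Alternatives were other cluster resolutions, doublets kept, a 10% mitochondrial limit, members used to cluster, TMM scaling, a mean over cells, other thinning and other filters. Sums over both macrophage classes and over all myeloid cells, a single shared cluster, leaving out the top cell and list counts under other settings were added after seeing the data.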

Additional observations from a re-analysis of the deposited data

Results flagged for a closer look

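Il1b in monocytes differed between the libraries of the lung pair and of the allograft pair in opposite ways. The CRPR2 level was 1.19 times that of RPR2, and the preSC_CracdKO level was 0.173 times that of preSC_WT. The difference between these 2 ratios was not tested, since each group holds 1 library. Within the best filled clusters that both libraries shared, the lung ratio was 0.973 and the allograft ratio 1.93, the latter on 1 and 3 UMIs. Of 15 stress genes 13 stood past 2-fold lower in preSC_CracdKO monocytes, beside 20.5% of all genes. In CRPR2 monocytes 1 of 15 was lower, beside 9.3% of all genes. The part of stress genes was not tested.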

How the results depend on the processing

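No paired analysis was possible because each group holds 1 library, and for the same reason no replicate could be left out. Of 417 ratios under other settings, 305 stayed within their interval, 102 moved and 10 turned round. Of 432 shares 365 stayed, of 710 levels 516, of 42 counts of members past 2-fold 36, of 36 counts of list genes in lung macrophages 18 and of 37 background shares 27. Settings that gave no finite ratio have no value here. Counts of members past 2-fold under other settings are printed in this section without the share of all genes, and nothing is read from them. The single shared cluster, the top cell left out, the wider sums and the list counts were chosen after seeing the data, and clusters of all cells, the planned choice, became an alternative then.

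In lung macrophages, with doublets kept, the ratios were 6.08 for Arg1, 0.169 for Chil3, 1.8 for Il1b and 1.12 for C1qb. At resolution 2 they were 4.12 for Arg1, 1.3 for Il1b and 1.14 for C1qb. With clusters of all cells they were 5.66 for Arg1, 0.357 for Chil3, 1.72 for Il1b and 0.793 for C1qb, and 2 members were past 2-fold in place of 4. The Chil3 ratio was 1.08 with the members used to cluster, 34.2 with a 10% mitochondrial limit, 2.34 as a mean over cells and 41.4 in 1 shared cluster. The C1qb ratio was 1.1 with TMM and 1.23 as a mean over cells. For every value in this section that moved or turned round, the cause was not tested. In alveolar macrophages 2 members were past 2-fold at resolution 2 and 1 with a 10% mitochondrial limit, in place of 4. The Chil3 ratio over both macrophage classes, 1.38, turned to 0.339 with doublets kept, 0.308 at resolution 0.5, 0.338 at resolution 2, 0.340 with the members used to cluster, 0.339 with a 10% limit and 0.357 with clusters of all cells.

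In lung monocytes the Il1b ratio was 1.05 at resolution 0.5, 0.872 with clusters of all cells, 1.46 as a mean over cells and 0.973 in 1 shared cluster. The Chil3 ratio there was 1.1 with clusters of all cells and 2.03 as a mean over cells. With a filter of 1 UMI 6 members were past 2-fold in monocytes in place of 3 and 4 in neutrophils in place of 2, and 1 in neutrophils with doublets kept. The neutrophil Il1b ratio was 0.815 with doublets kept, 1.36 at resolution 0.5, 1.34 with the members used to cluster, 1.03 as a mean over cells and 1.43 in 1 shared cluster. In allograft monocytes the C1qb ratio was 1.52 with doublets kept, 1.7 at resolution 0.5, 1.9 at resolution 2, 5.19 with the members used to cluster and 2.18 with a 10% limit, and the Il1b ratio was 1.93 in 1 shared cluster. The Tnf ratio over all allograft myeloid cells, 3.15, was 0.282 with clusters of all cells, which left 38 preSC_CracdKO cells, in place of 102.

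At 500 UMIs per cell all 3 C1q chains were found in 42.4% of RPR2, 50.5% of CRPR2 and 76.4% of preSC_WT macrophages. At 1000 UMIs the CRPR2 share was 76.4%, and 94.3% with doublets kept. Alternative and classical genes together were found at 500 UMIs in 6.94% of RPR2, 16.9% of preSC_WT and 5.0% of preSC_CracdKO monocytes. Without thinning they were in 31.2% of RPR2, 40.8% of CRPR2 and 41.3% of preSC_WT monocytes. At 1000 UMIs the preSC_WT share was 30.9%, and 23.6% with doublets kept. The depth of a cell limits these shares.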
